A study of Mus musculus with 5 samples.

Results

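Lysosomal hydrolases and membrane proteins were followed as a set of 33 genes in sorted brain microglia, the resident macrophages of the brain, with and without full deletion of A20. The 33 genes were chosen by symbol from a table of 41388 Ensembl genes, all 33 were found, and all 33 passed the filter on low counts. They comprise 21 hydrolases, 4 other proteins of the lysosomal lumen and 8 proteins of the lysosomal membrane. In the outcome, 1 of the 33 rose in the A20-deleted libraries, Ifi30, and 0 fell. Of the 12240 genes tested, 2.08% were called higher and 0.507% lower. The groups overlapped in 16 of the 33, and in 7317 of the 12240.

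The lysosome is the acidic compartment in which cells break down material taken up from outside and worn-out parts of their own. Soluble hydrolases cut sugars, sulfate groups, lipids and proteins, activator proteins lift lipids within reach of these enzymes, and heavily glycosylated membrane proteins line the compartment and carry its products out. Inherited loss of single enzymes causes storage diseases, many of which damage the brain, and microglia, as phagocytes, carry large amounts of lysosomal transcripts. Many lysosomal genes share a promoter sequence, the CLEAR element, which is bound by the transcription factor TFEB and its relatives.

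Bulk RNA was sequenced from eYFP-positive cells of C57Bl/6 mice aged 4 weeks that had received 2 mg of tamoxifen on postnatal days 14 and 16. The control group (2 libraries, genotype eYFP-A20fl/wt Cx3cr1-CreERT2/+) carried 1 floxed and 1 wild-type A20 allele and a tamoxifen-inducible Cre under Cx3cr1, a gene active in microglia and also in other macrophages, and is labelled partially deficient. The A20-deleted group (3 libraries, genotype eYFP-A20Dmg) is described as fully deficient. A20, encoded by Tnfaip3, restrains NF-kB signalling, and the comparison asks how its full loss alters the transcripts of microglia. Both groups carried the eYFP reporter and received tamoxifen, so neither is untreated. Nothing in the labels ties the libraries of a group to separate animals. The p-values therefore reflect only how far these libraries varied, and some of that variation may be technical.

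Library totals ran from 9726334 to 15275199 counts, and the 33 genes had between 113 and 119163 counts each in a library. Levels are given as CPM, a gene's counts relative to the library total after scaling by the trimmed mean of M values. Tnfaip3 measured 454 and 94.7 CPM in the 2 controls, against 295, 277 and 348 CPM in the A20-deleted libraries (edgeR adjusted p = 0.881), and counts over all its exons do not check the deletion. All 12 microglia markers were well detected. Their summed levels were 56599 and 62510 CPM in the controls and 44772, 46556 and 41428 CPM in the A20-deleted libraries. Of these 1 was called lower, Fcrls, at 4092 and 3684 CPM against 1497, 2006 and 1398 CPM (edgeR adjusted p = 0.0217). Siglech and Trem2 overlapped between the groups. The other microglia markers lay below both controls in every A20-deleted library, as did 18.5% of all genes tested. Control replicate 1 and A20-deleted replicate 1 contained Xist, and the other 3 libraries contained Y-linked transcripts instead. A20-deleted replicates 2 and 3 stood apart from the rest. Their mitochondrially encoded share was 4.27% and 3.27%, against 0.723% to 1.05% in the other libraries. Their counts over tested genes came to 37.8% and 38.5% from genes longer than the median, against 44.9% to 47.9% in the others. In bulk samples, fewer cells of a type and less RNA per cell cannot be told apart.

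The gene promoters were read first for the CLEAR core. The genes were chosen by symbol and not by promoter sequence. Many lysosomal genes share this element, so its share in a lysosomal set is a description and not an independent result. RefSeq promoters (GRCm38.p6, 250 bases before to 50 after the gene start) were at hand for 31 of the 33 genes, in 34 windows; those of Npc1 and Asah1 were not used here. The 8-base word GTCACGTG, on either strand, was found in 10 of the 34 windows (29.4%), against 2.25% of all 32851 promoters. It was found in 10 genes: Arsa, Cln3, Gla, Glb1, Ifi30, Lamp1, Lgmn, Mcoln1, Naglu and Sgsh. The shorter E-box CACGTG, which lies within it, was in 32.4% of the windows and in 7.15% of all promoters. The stretches of 3 of these genes are shown here. Ifi30 is the gene that rose, Lamp1 the membrane gene with the smallest p, and Glb1 an enzyme whose groups also did not overlap (its exons share 165 bases with Tmppe on the same strand, where reads cannot be told apart). Capitals mark the word or its reverse complement, with 20 bases on each side, and each sequence runs 5′ to 3′ on the strand of its gene.
Ifi30 (chr8:70766832-70766879, minus strand): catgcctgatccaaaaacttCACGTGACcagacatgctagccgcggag
Lamp1 (chr8:13159113-13159160, plus strand): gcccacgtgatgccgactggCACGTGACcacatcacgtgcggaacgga
Glb1 (chr9:114401008-114401055, plus strand): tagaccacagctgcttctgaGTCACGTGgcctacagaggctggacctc
The capitals begin 196 bases before the start of Ifi30, 28 before that of Lamp1 and 50 before that of Glb1. The stretch of Ifi30 overlaps an annotated exon, and those of Lamp1 and Glb1 do not. A match is a description of letters and not a bound site.

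The 10 genes with the word had a median log2 fold change of 0.34 (range 0.03 to 1.25), and all 10 were above 0. The 21 genes without it had a median of -0.01, and 10 of them were above 0. The genes with the word were also shorter, with a median summed exon length of 3136 bases against 4548. In 113 promoter windows of other lysosome genes the word was found in 13.3%. There the medians were 0.13 over 13 tested genes with the word and 0.07 over 78 without. Of these other genes, 9 of the 13 with the word and 48 of the 78 without it were above 0. The 1 called gene among the 13 was Cd164, which fell. The STAT word TTCNNNGAA was in 8.82% of the 34 windows and in 8.3% of all promoters. A form of the interferon-stimulated response element was in 2.94% and 3.44%, and a form of the NF-kB consensus in 0 of the 34 and in 0.411% of all promoters. The single window with the interferon word was that of Lamp1.

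Across the set, the share of genes that passed was near that of the whole table. With edgeR's quasi-likelihood test and an adjusted p under 0.05, 1 of 33 genes was higher and 0 were lower (3.03% in either direction), where 2.08% of the 12240 genes tested were called higher, 0.507% lower and 2.59% either way. At an unadjusted p under 0.05, 7 were higher and 3 lower, against 12.8% and 8.26% of all genes. In 14 genes all 3 A20-deleted libraries lay above both controls and in 3 they lay below, against 21.8% and 18.5% of all genes. The median log2 fold change was 0.13 over the set and 0.05 over all genes. By class, the medians were 0.12 for the 21 hydrolases, 0.58 for the 4 other luminal proteins and -0.05 for the 8 membrane proteins. The 33 genes together held 3.47% and 3.76% of the scaled counts in the controls and 4.34%, 3.9% and 3.91% in the A20-deleted libraries. This summed share lay above both controls in each A20-deleted library, but a sum is weighted to the abundant genes and the classes differed. The 4 other luminal proteins summed to 10292 and 10030 CPM in the controls and to 16848, 13115 and 14297 CPM with A20 deleted. The 21 hydrolases summed to 14228 and 15702 CPM and to 16182, 16365 and 15789 CPM. The 8 membrane proteins summed to 10211 and 11825 CPM and to 10412, 9501 and 9059 CPM, in no A20-deleted library above both controls.

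**Figure D1:**
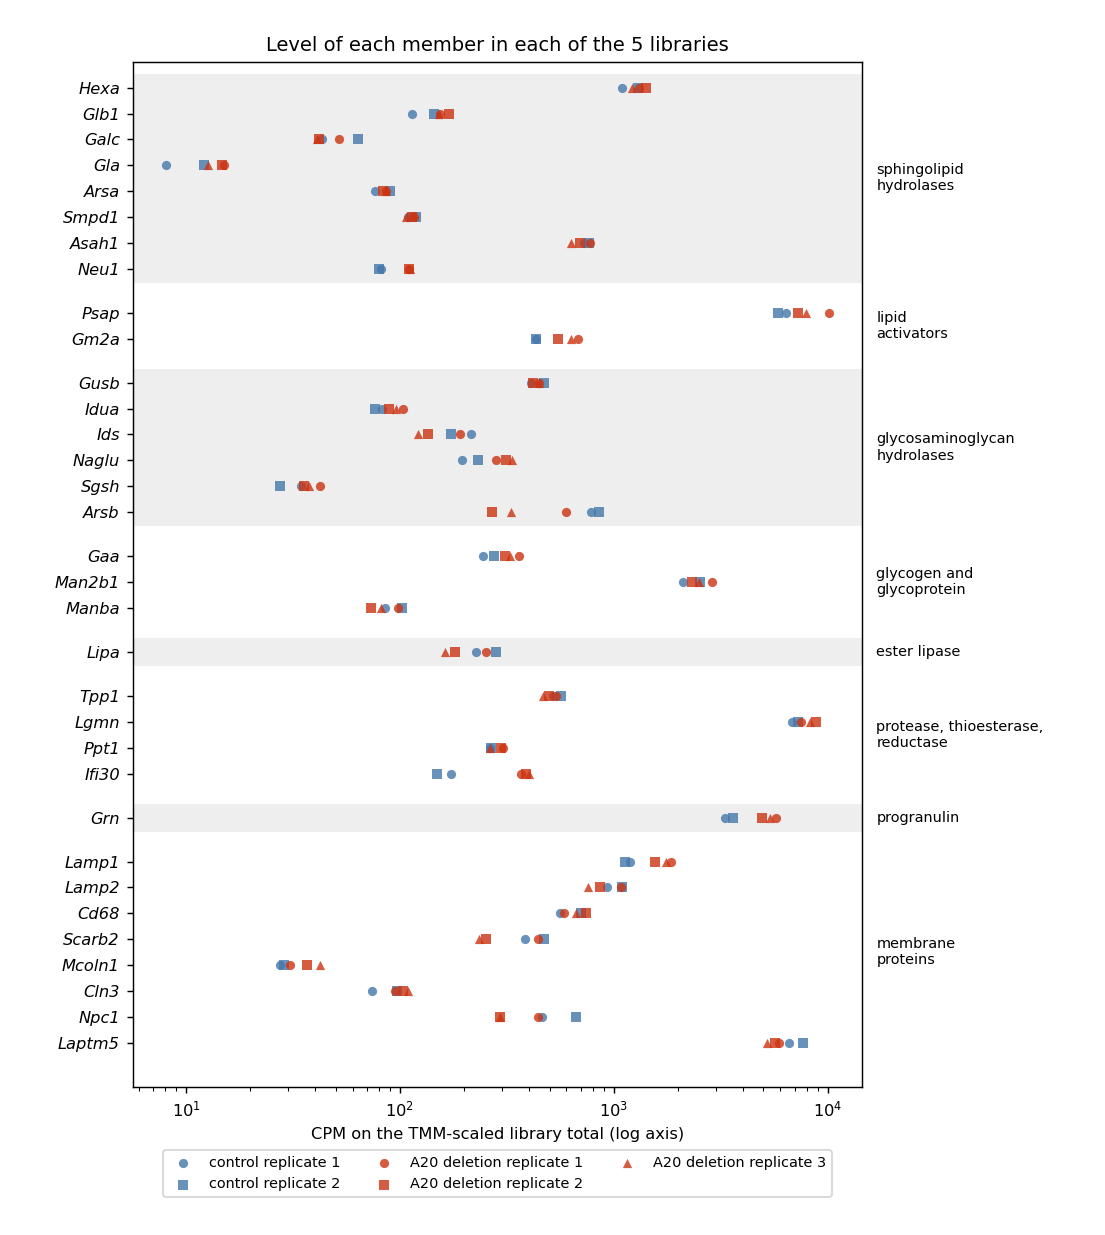
Level of each of the 33 genes in each of the 5 libraries, in CPM on a log axis, grouped by role, with blue for control and red for A20 deletion and 1 symbol per replicate number. The Ifi30 points of the groups are well apart, at 149 and 174 CPM against 366 to 401 CPM, while those of Arsa, Smpd1 and Gusb overlap.

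Ifi30 encodes the interferon-inducible thiol reductase of the lysosome, which opens disulfide bonds in proteins before they are cut and presented on MHC class II. Ifi30 (ENSMUSG00000031838, GRCm38 chromosome 8, 70762774 to 70766663) was found at 174 and 149 CPM in the 2 controls and, with A20 deleted, at 366, 389.6 and 401 CPM. The control mean was 162 ± 17.4 CPM (SD, n = 2), and that with A20 deleted was 386 ± 18.0 CPM (SD, n = 3). It rose 2.39-fold, with a log2 fold change of 1.25 (SE 0.16, edgeR adjusted p = 0.0141). The 3 A20-deleted libraries lay close together and each was more than the spread of the controls above them. Within the libraries that contained Xist the log2 difference was 1.07, and within those with Y-linked transcripts it was 1.40. The call ended when control replicate 1 was left out (adjusted p = 0.128), when control replicate 2 was (0.237) and when A20-deleted replicate 3 was (0.0638), in fits that called 0.123%, 0.0% and 0.727% of all genes higher. Ifi30 is the shortest of the 33 genes, with 981 bases of exon. After each library's trend on gene length was removed, the log2 fold change was 0.66 (adjusted p = 0.163), where 2.12% of all genes were called higher.

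Ifi30 is also made by other antigen-presenting cells, so markers of other immune cells are given beside it. The T and NK cell list is not one of antigen-presenting cells, and no list of dendritic cell markers was read. The summed level of 10 monocyte markers was 22.3 and 17.1 CPM in the controls and 63.6, 33.3 and 43.4 CPM in the A20-deleted libraries. Of the 6 that were tested 1 was higher, Plac8, at 2.99 and 2.63 CPM against 30.7, 16.7 and 27.1 CPM (edgeR adjusted p = 0.00792). Plac8 made most of the rise of this sum. Cd44, Ly6c2 and Clec4e also lay above both controls in every A20-deleted library, as did 21.8% of all genes tested. Ly6c2 and Clec4e were barely detected, at most at 1.47 CPM. The monocyte receptor gene Ccr2 lay below, at 11.5 and 8.21 CPM in the 2 controls against 8.14, 5.19 and 5.5 CPM in the A20-deleted libraries. The remaining monocyte markers overlapped between the groups. Of 13 T and NK cell markers 10 had no counts in either control, and their sum ran from 0.64 to 1.219 CPM in the controls and from 6.82 to 9.88 CPM in the A20-deleted libraries. The 5 B cell markers summed to 39.1 and 39.0 CPM in the controls and to 37.6, 49.8 and 50.6 CPM with A20 deleted, and their groups overlapped. Nearly all of this was Cd79b, and the other 4 were at 0 in both controls and at most at 0.236 CPM in an A20-deleted library. The 9 markers of border macrophages, the macrophages of the brain's surfaces and vessels, summed to 82.5 and 167 CPM in the controls and to 248, 133 and 178 CPM with A20 deleted, with 0 called by edgeR. Of these, Siglec1, Ms4a7 and Folr2 lay above both controls in every A20-deleted library, as Ifi30 and 21.8% of all genes tested did. The other 6 overlapped. Siglec1, which interferon also induces, was the most abundant of the 3 that lay above, at 19.3 and 29.9 CPM against 134, 42.1 and 71.4 CPM (adjusted p = 0.124). The part of other immune cells in the Ifi30 level was not tested.

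The other 3 luminal proteins that are not hydrolases lay above both controls in every A20-deleted library, but none passed. Progranulin, encoded by Grn (ENSMUSG00000034708, GRCm38 chromosome 11, 102430315 to 102437048), is a secreted and lysosomal glycoprotein whose loss causes a lysosomal storage disease and a form of dementia. Grn was found at 3289 and 3592 CPM in the 2 controls and, with A20 deleted, at 5703, 4924 and 5361 CPM. The groups were apart by more than the spread within either, at 1.55-fold, with a log2 fold change of 0.63 (SE 0.13, edgeR adjusted p = 0.0651). DESeq2, which called 6.08% of all genes higher and 2.99% lower, called Grn (adjusted p = 0.00424), Ifi30 and Lamp1 higher and Arsb lower.

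Prosaposin, encoded by Psap, is cut into the saposins, which help hydrolases to reach sphingolipids. Psap measured 6399 and 5857 CPM in the 2 controls, against 10099, 7252 and 7903 CPM in the A20-deleted libraries (log2 fold change 0.46, SE 0.17, edgeR adjusted p = 0.199). A20-deleted replicate 1 was the highest of the 5 by a wide margin. The GM2 activator Gm2a, which presents the ganglioside GM2 to hexosaminidase A, stood at 430.3 and 432 CPM and at 679.9, 549.7 and 632 CPM (log2 0.53, SE 0.16, adjusted p = 0.149). Its controls were nearly equal and all 3 A20-deleted libraries lay above them.

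Of the 8 enzymes that act on sphingolipids and gangliosides 0 passed (edgeR; 1 was higher at an unadjusted p under 0.05, and DESeq2 called 0). Hexa, the alpha chain of hexosaminidase A, had the highest level per length of these, at 599.7 CPM per kilobase of exon over the controls and 658 over the A20-deleted libraries. Hexa was found at 1097 and 1297 CPM in the 2 controls and, with A20 deleted, at 1307, 1415 and 1218 CPM, and the groups overlapped (log2 0.13, SE 0.15, edgeR adjusted p = 0.624). The sialidase Neu1 was even within each group and apart between them, at 81.7 and 79.9 CPM in the controls and 110.7, 109.8 and 111.2 CPM in the A20-deleted libraries (log2 0.45, SE 0.15, adjusted p = 0.165). The beta-galactosidase Glb1 and the alpha-galactosidase Gla also lay above both controls in every A20-deleted library. Glb1 stood at 114 and 145 CPM and at 154, 169.96 and 152 CPM, and Gla, the lowest of the 33 genes, at 8.04 and 12.2 CPM and at 14.988, 14.7 and 12.7 CPM. For both the gap to the nearer control was smaller than that between the controls. Arylsulfatase A (Arsa), acid sphingomyelinase (Smpd1), acid ceramidase (Asah1) and galactosylceramidase (Galc) overlapped between the groups, with log2 fold changes from -0.25 to 0.03.

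Of the 6 enzymes that degrade glycosaminoglycans 0 passed (edgeR; at an unadjusted p under 0.05, 1 was higher and 1 lower), and their log2 fold changes ran from -1.03 to 0.54. Naglu, which removes N-acetylglucosamine from heparan sulfate, measured 195 and 232 CPM in the 2 controls, against 280.2, 313 and 334 CPM in the A20-deleted libraries (log2 0.54, SE 0.17, edgeR adjusted p = 0.155). Arylsulfatase B, encoded by Arsb (ENSMUSG00000042082, GRCm38 chromosome 13, 93771630 to 93943016), removes sulfate from dermatan and chondroitin sulfate. Arsb was found at 779.9 and 856 CPM in the 2 controls and, with A20 deleted, at 598, 269 and 330.1 CPM. It had the lowest log2 fold change of the set, -1.03 (SE 0.32, adjusted p = 0.154), and its A20-deleted libraries differed among themselves by more than 2-fold. Without A20-deleted replicates 2 and 3 its log2 fold change was -0.44. Idua and Sgsh, which also act on heparan sulfate, lay above both controls in every A20-deleted library (log2 0.27 and 0.31). Ids, the iduronate sulfatase, stood at 215 and 174 CPM and at 189.9, 135 and 121 CPM, and Gusb, the beta-glucuronidase, overlapped between the groups (log2 -0.01, SE 0.15).

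Among enzymes for glycogen and glycoproteins, acid alpha-glucosidase (Gaa) measured 245 and 274 CPM in the 2 controls, against 362, 309 and 326 CPM in the A20-deleted libraries (log2 0.36, SE 0.16, edgeR adjusted p = 0.253). The alpha-mannosidase Man2b1 was the most abundant of these, at 2096 and 2539 CPM and at 2879.9, 2320.1 and 2500.1 CPM, and its groups overlapped, as did those of the beta-mannosidase Manba. Lipa, the acid lipase that frees cholesterol and fatty acids from esters, stood at 227 and 281 CPM and at 253, 181 and 162 CPM (log2 -0.35, SE 0.23, adjusted p = 0.393). Its A20-deleted replicate 1 lay between the controls and the other 2 lay below both. Of the proteases and thioesterases, legumain (Lgmn), an asparaginyl endopeptidase, had the highest level per length of all 33 genes, with 3034 CPM per kilobase in the controls and 3519 in the A20-deleted libraries. Lgmn stood at 6823 and 7273 CPM and at 7473, 8784 and 8268 CPM (log2 0.21, SE 0.13, adjusted p = 0.36). Tpp1 and Ppt1, whose loss causes childhood forms of neuronal ceroid lipofuscinosis, overlapped between the groups (log2 -0.11 and 0.12).

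**Figure D2:**
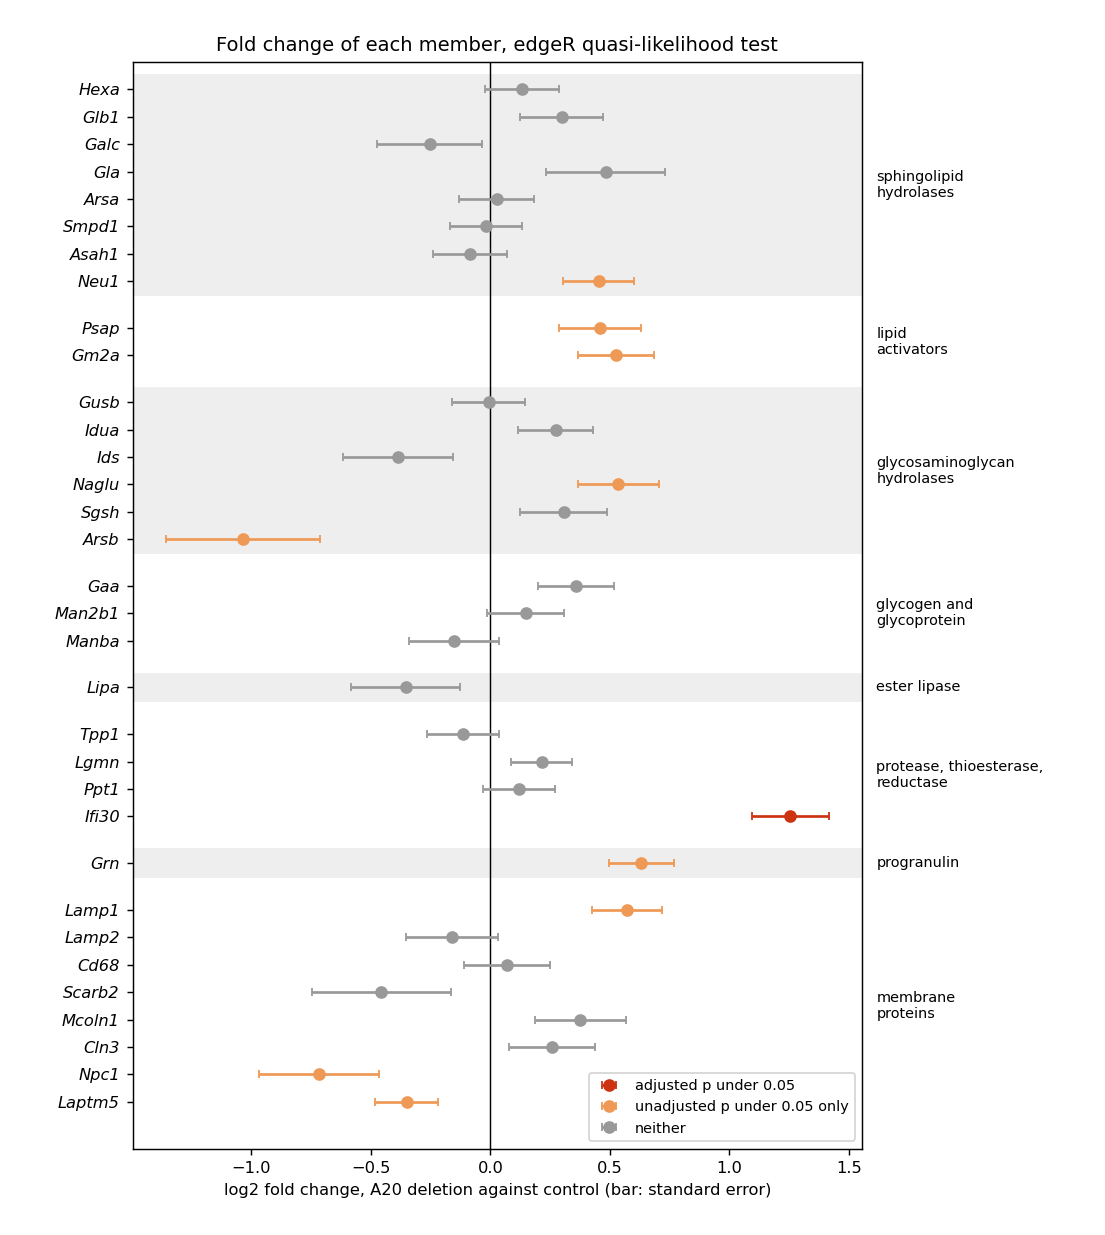
Log2 fold change of each gene, A20 deletion against control, with its standard error (edgeR, 2 and 3 libraries), in the same order of roles. Ifi30 at 1.25 is the single gene with an adjusted p under 0.05, 9 further genes had only an unadjusted p under 0.05, and Arsb at -1.03 has the widest bar.

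Of the 8 membrane proteins 0 passed (edgeR; at an unadjusted p under 0.05, 1 was higher and 2 lower), with 4 log2 fold changes above 0 and 4 below. Lamp1 (ENSMUSG00000031447, GRCm38 chromosome 8, 13159161 to 13175338) encodes one of the major glycoproteins that line the lysosome. Lamp1 was found at 1187 and 1125 CPM in the 2 controls and, with A20 deleted, at 1840.2, 1553 and 1761 CPM, a gap wider than the spread of either group (log2 0.57, SE 0.15, edgeR adjusted p = 0.108). Its relative Lamp2, which also serves chaperone-mediated autophagy, stood at 925 and 1091 CPM and at 1085, 863 and 759.8 CPM, and the groups overlapped (log2 -0.16, SE 0.19). Cd68, a LAMP-family protein of macrophages often stained as a sign of phagocytic activity, overlapped between the groups, at 561 and 703 CPM and at 584, 738 and 667 CPM (log2 0.07, SE 0.18, adjusted p = 0.835).

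Npc1, which passes cholesterol out of the lysosome, measured 459 and 667 CPM in the 2 controls, against 441, 292 and 295 CPM in the A20-deleted libraries (log2 -0.72, SE 0.25, edgeR adjusted p = 0.184). Its A20-deleted replicate 1 was close to control replicate 1, and the other 2 were well below both controls. Laptm5, a lysosomal protein of immune cells that limits receptor signalling, was the most abundant membrane transcript of the set per length, at 1879 CPM per kilobase in the controls and 1473 in the A20-deleted libraries. Laptm5 stood at 6593 and 7644 CPM and at 5893, 5662 and 5190.1 CPM, below both controls in every A20-deleted library (log2 -0.35, SE 0.13, adjusted p = 0.203). Scarb2, the receptor that brings glucocerebrosidase to the lysosome, was split: 443 CPM in A20-deleted replicate 1 lay within the control range of 384 to 469 CPM, while replicates 2 and 3 held 253 and 235 CPM. The calcium channel gene Mcoln1 lay above both controls in every A20-deleted library, at 27.4 and 28.8 CPM against 30.6, 36.8 and 42.1 CPM (log2 0.38, SE 0.19). Cln3, another gene of neuronal ceroid lipofuscinosis, overlapped (log2 0.26, SE 0.18).

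The order of the genes by level per length was nearly the same in both groups (Spearman's rho 0.98 across the 33 genes, which share libraries and exon lengths). Lgmn, Psap, Laptm5 and Grn led in the controls, and Lgmn, Psap, Grn and Laptm5 in the A20-deleted libraries. Grn and Laptm5 thus changed places, at 990.3 and 1879 CPM per kilobase in the controls and 1534 and 1473 in the A20-deleted libraries, where the ranges of their libraries overlapped. The lowest were Gla, Galc and Mcoln1, each under 5 CPM per kilobase in both groups.

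The A20-deleted libraries differed among themselves in this set. A20-deleted replicate 1 was the highest of the 3 for 24 of the 33 genes and the lowest for 6. The median absolute log2 ratio over the 33 genes was 0.12 between replicates 2 and 3, 0.19 between replicate 1 and their mean, and 0.22 between the 2 controls. Of the 33 genes 26 were higher in control replicate 2 than in control replicate 1. When the groups were set against each other within the Xist libraries (1 against 1) and within the Y-linked ones (2 against 1), 21 genes differed in the same direction in both and 12 in opposite directions. Among the latter were Scarb2, with log2 differences of 0.21 and -0.94, Lipa, with 0.16 and -0.71, and Lamp2, with 0.23 and -0.43. Summed markers of astrocytes and oligodendrocytes were highest in the same A20-deleted replicates 2 and 3, and those of endothelial cells and border macrophages in replicate 1. The 6 astrocyte markers summed to 174 and 253 CPM in the controls and 189, 399 and 394 CPM with A20 deleted, and the 6 oligodendrocyte markers to 97.7 and 121 CPM and to 129, 241 and 237 CPM, with 0 of either list called. The 6 endothelial markers summed to 66.8 and 72.2 CPM in the controls and to 122, 65.3 and 62.1 CPM with A20 deleted, also with 0 called. This sum joins opposite directions. Pecam1, most of it in the controls, stood at 50.6 and 53.1 CPM against 26.3, 35.2 and 28.0 CPM. Cldn5, Flt1, Kdr, Cdh5 and Slco1a4 lay above both controls in every A20-deleted library, as did 21.8% of all genes tested. The part of these cells in the levels of the 33 genes was not tested. The log2 fold changes were lower in longer genes. Spearman's rho of the log2 fold change with summed exon length was -0.57 across the 33 genes and -0.36 across 12189 genes tested. Per library, rho across the 33 genes was -0.42 in replicate 1, -0.65 in replicate 2 and -0.52 in replicate 3. The 20 genes with a log2 fold change above 0 had a median of 3574 bases and the 13 below 0 a median of 6037. The part of library structure in the differences of single genes was not tested beyond the length-corrected values.

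**Figure D3:**
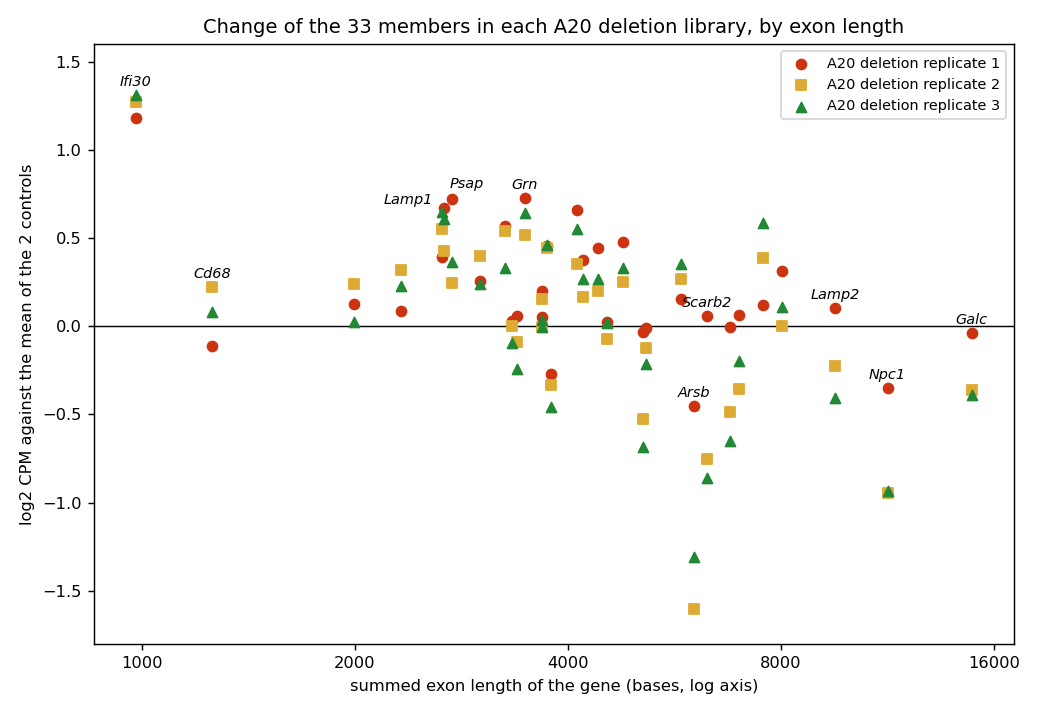
Log2 CPM of each gene in each A20-deleted library against the mean of the 2 controls (vertical) by summed exon length in bases (horizontal, log axis), 3 points per gene. Ifi30, with 981 bases, is highest in all 3 libraries, and for Arsb, Scarb2, Npc1 and Lamp2 replicates 2 and 3 lie below replicate 1.

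Without A20-deleted replicate 1, 7 of the 33 genes were called higher (Ifi30, Grn, Lamp1, Gm2a, Naglu, Neu1 and Mcoln1) and 6 lower (Arsb, Npc1, Scarb2, Ids, Lipa and Laptm5), but that fit called 15.7% of all genes higher and 16.7% lower. In that fit the genotype cannot be told apart from the mitochondrial and length differences of replicates 2 and 3. With A20-deleted replicates 2 and 3 both left out, Ifi30, Grn and Psap were called higher and 0 lower, where 2.64% and 0.64% of all genes were called. The lone deletion library of that fit was assumed to vary as the controls did. Ifi30 and Grn were called in both of these fits, which share the controls. Ifi30 and Grn were also called with sex as a covariate and with a filter of at least 5 CPM in 2 libraries, where 4.6% and 3.08% of all genes were called higher. With the replicate number as a block Ifi30 alone was called (background 1.86%). With no filter Ifi30 was called higher and Arsb and Npc1 lower, where 5.06% of all genes were higher and 3.15% lower.

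**Figure D4:**
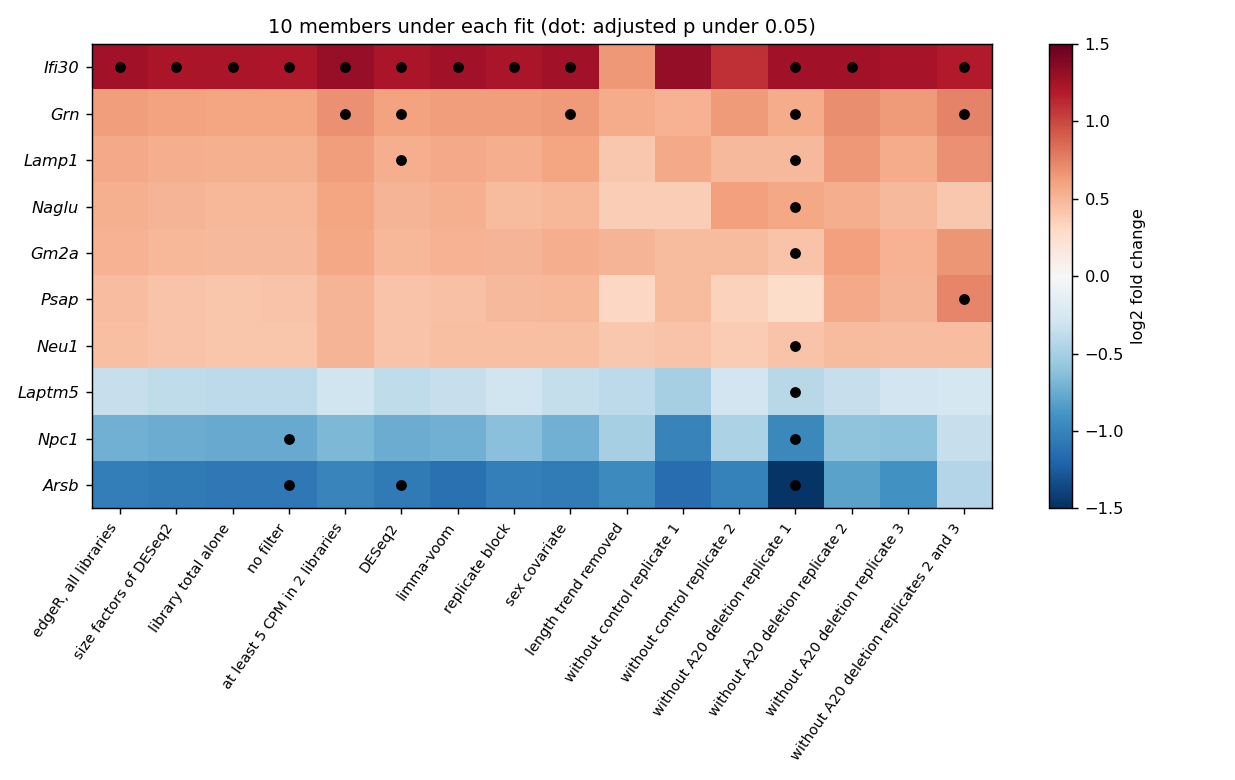
Log2 fold change (colour) of the 10 genes with an unadjusted p under 0.05 in the edgeR fit of all libraries, in that fit and in each of 15 alternatives, with a dot where the adjusted p was under 0.05. Ifi30 carries a dot in 11 of the 15 alternatives and Grn in 5, and the direction of each of the 10 genes is the same in every column.

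The remaining genes of the lysosome were read from 6 lists. Of 123 genes 117 were tested, 5 rose and 1 fell, with a median log2 fold change of 0.08. Among all genes tested 2.08% were called higher and 0.507% lower. Niemann-Pick protein Npc2, which hands cholesterol to Npc1, rose 1.85-fold, from 690.2 and 675 CPM to 1264, 1233 and 1292 CPM (edgeR adjusted p = 0.0261), the 1 call among 28 other hydrolases and luminal proteins. Cathepsins, the proteases of the lysosome, held 3 of the 5 rises among 12 tested, with a median of 0.38. The 105 other genes tested held 2 rises and 1 fall (2.86% in either direction, against 2.59% of all genes). Cathepsins Z, H and S (Ctsz, Ctsh and Ctss) rose 1.97-fold, 1.92-fold and 1.67-fold (edgeR adjusted p = 0.0253, 0.0245 and 0.0267). Their groups did not overlap, and Ctss was the most abundant cathepsin per length in the A20-deleted libraries. Cathepsin D (Ctsd), the most abundant cathepsin per length in the controls, stood at 14058 and 15751 CPM and at 17754, 18919 and 16841 CPM (adjusted p = 0.261).

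Of 29 tested membrane proteins outside the set, the tetraspanin Cd63 rose 1.92-fold (138 and 160.1 CPM against 262, 296 and 301 CPM, edgeR adjusted p = 0.0355) and the sialomucin Cd164 fell 2.07-fold (1775 and 1979 CPM against 880.1, 973 and 867 CPM, adjusted p = 0.0164). Laptm4a, the most abundant of them per length in the A20-deleted libraries, overlapped between the groups (log2 0.05). Of 17 subunits of the proton pump that acidifies the lysosome 0 passed (edgeR; at an unadjusted p under 0.05, 4 were higher and 1 lower, and DESeq2 called 0). Atp6v1f and Atp6v1g1 had the smallest p of these (log2 0.58 and 0.46, adjusted p = 0.171 and 0.179), and Atp6ap1, the most abundant per length, had a log2 fold change of 0.00. Of 16 genes for the sorting of enzymes to the lysosome 0 passed (edgeR; 1 was higher and 1 lower both at an unadjusted p under 0.05 and by DESeq2). The mannose 6-phosphate receptor Igf2r was low, at 0.854 and 1.73 CPM in the controls and 9.44, 3.85 and 7.74 CPM in the A20-deleted libraries (adjusted p = 0.0769). The sorting receptor Sort1 stood at 603 and 718 CPM and at 474, 276 and 274 CPM (adjusted p = 0.126), and the second mannose 6-phosphate receptor, M6pr, had a log2 fold change of 0.12.

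Of 15 tested MiT transcription factors and partners of mTORC1 at the lysosomal surface 0 passed (edgeR; 3 were higher at an unadjusted p under 0.05, and DESeq2 called 0), Rragd and Lamtor4 having the smallest p (log2 1.36 and 0.61, edgeR adjusted p = 0.173 and 0.21). Tfeb, named after its values were seen because it binds the CLEAR element, was found at 86.6 and 78.9 CPM in the 2 controls and, with A20 deleted, at 92.3, 85.6 and 86.3 CPM (log2 0.09, SE 0.15, adjusted p = 0.746). The 5 rises in these lists all ended when either control replicate, or A20-deleted replicate 2 or 3, was left out. They also ended with the replicate number as a block (adjusted p from 0.0626 to 0.095). Those of Ctsz and Ctss also ended after the length correction (adjusted p = 0.107 and 0.408). In that fit 4 of these genes were called higher, 2 of them cathepsins, including a cathepsin not called in the fit of all libraries without the correction. Of all genes 2.12% were called higher there. The fall of Cd164 ended when either control replicate or A20-deleted replicate 3 was left out, and with the block (adjusted p = 0.0589). Leaving out A20-deleted replicate 1 gave 30 of the 117 genes higher and 18 lower, in the fit that called 15.7% of all genes higher and 16.7% lower.

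**Figure D5:**
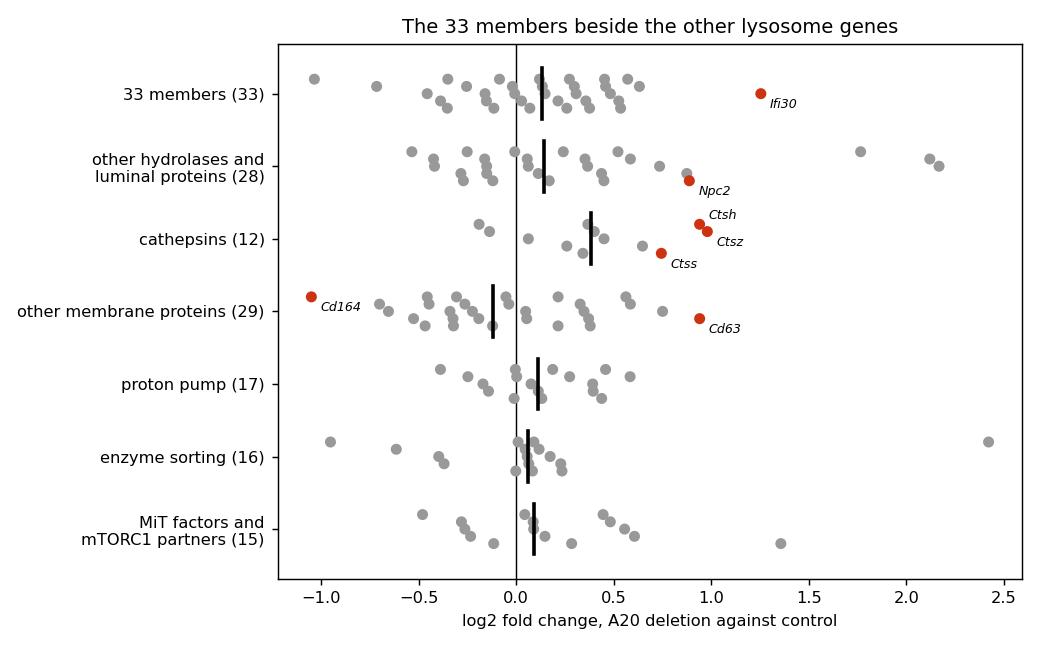
Log2 fold changes of the 33 genes and of the tested genes of each of the 6 other lysosome lists, 1 point per gene, red where the adjusted p was under 0.05, with a black bar at the median. The cathepsins have the highest median, at 0.38, and the other membrane proteins the lowest, at -0.12.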

How the data were processed

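Read counts per Ensembl gene, deposited as 1 table without normalization, were the starting point. The submitters' processing notes name STAR 2.4.0j, featureCounts, DESeq2 1.22.1 and build GRCm38. They leave the annotation release, strand setting and handling of reads with several matches unstated in the sources used here. In GENCODE M21, 13 of the 33 genes share exon bases with another gene, and reads there cannot be told apart without strand. Library input was 10 ng of RNA (integrity number at least 7), per the labels' protocols. Of the 41388 genes 40254 matched a GENCODE M21 symbol by identifier, and 2 list entries were found by synonym.

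The analysis used edgeR 4.0.16 under R 4.3.3, with filterByExpr (minimum count 10, minimum total 15), TMM scaling and the quasi-likelihood test (two-sided, no covariate) on 12240 genes, with Benjamini-Hochberg adjustment over all of them. Standard errors are approximate, taken from the log2 fold change and its F statistic. Alternatives were other scalings and filters, DESeq2 1.42.0, limma-voom (limma 3.58.1), the replicate block, sex as a covariate, removal of each library's trend on gene length, and libraries left out. The procedure was run on simulated data with known changes. The simulated libraries held no mitochondrial, length or sex differences, so that run cannot show how such differences affect the calls here. Sex was read from Xist and Y-linked counts. Levels per kilobase use summed exon length in GENCODE M21. The members, lists and tests were chosen with earlier results of these data known. Genes given in full are those with an unadjusted p under 0.05 and, per role, the gene with the highest level per length and the one with the smallest p. In the other lysosome lists they are the called genes, otherwise the 2 with the smallest p, and the gene with the highest level per length. Others were chosen after their values were seen. Some genes that these rules name are not reported here.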

Additional observations from a re-analysis of the deposited data

How the results depend on the processing

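Of 495 values of the 33 genes under 15 alternatives, 440 kept their direction and side of the threshold, and 21 genes kept their direction throughout. Over all genes 255 were higher and 62 lower. These counts became 1048 and 653 with no filter, 744 and 366 with DESeq2, 563 and 261 with sex as a covariate, and 166 higher with limma-voom. In the set, 1 higher and 0 lower became 1 and 2 with no filter (Arsb, Npc1), 3 and 1 with DESeq2, 2 higher with at least 5 CPM in 2 libraries and with sex (Ifi30, Grn), 0 after the length correction and 3 without A20-deleted replicates 2 and 3. For the other lysosome genes, 5 higher and 1 lower became 9 and 5 with no filter, 13 and 2 with DESeq2, and 9 and 2 with sex. Leaving out 1 library gave 0 to 1902 higher and 0 to 2021 lower over all genes, 0 to 7 and 0 to 6 in the set, and 0 to 30 and 0 to 18 in the other lists. Without control replicate 2, edgeR called 0 genes (1323 at an unadjusted p under 0.05). The cause of these moves was not tested, beyond the fewer samples of the last fits.

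With the replicate number as a block, Ifi30 was called (adjusted p = 0.0386), the other lysosome genes gave 0 higher and 0 lower, and all genes 228 and 32. Deviations from the group mean correlated at 0.26 between the replicates numbered 1 and at 0.167 between those numbered 2. For the crossed pairs they were -0.26 and -0.167. With 2 controls the deviation of 1 is the negative of the other, so these values are not independent. The same-numbered pairs were also alike in Xist or Y-linked transcripts. In the labels they share only a number, so these correlations cannot show a pairing.

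The log2 fold changes that turned sign were those of 12 genes that did not pass. After the length correction they were -0.13 for Hexa, -0.0233 for Arsa, 0.0105 for Gusb, -0.0085 for Lgmn, 0.0472 for Lamp2 and -0.40 for Cd68. Arsa was also -0.0010 with DESeq2's size factors, -0.0093 with the library total alone, -0.0105 with no filter and -0.0013 with DESeq2. With at least 5 CPM in 2 libraries Smpd1 was 0.0309 and Gusb 0.0432, and with the block Smpd1 was 0.0173. Without A20-deleted replicates 2 and 3 they were 0.0418 for Smpd1, 0.0657 for Asah1, 0.0365 for Gusb, 0.0738 for Manba, 0.0070 for Lipa, 0.12 for Lamp2, -0.10 for Cd68 and 0.0669 for Scarb2. With 1 library left out, the ranges that crossed 0 were -0.026 to 0.2081 for Hexa, -0.1279 to 0.0959 for Arsa, -0.1233 to 0.0255 for Smpd1, -0.1524 to 0.0481 for Gusb, -0.0279 to 0.2408 for Man2b1 and -0.1283 to 0.1891 for Cd68. The lowest gene of the set had 788 counts over the 5 libraries.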

Other observations

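Transcripts of proteins that work as partners were set against each other within each library, where the ratio of 2 genes does not depend on library scaling. These pairs were chosen after their values were seen. Npc1 per Npc2, which pass cholesterol along together, was 0.665 and 0.987 in the controls and 0.349, 0.237 and 0.228 in the A20-deleted libraries. Every A20-deleted library was below both controls, and A20-deleted replicate 1 shared the direction of replicates 2 and 3. Npc1 has 11317 bases of exon and Npc2 5438. Lamp1 per Lamp2 was 1.28 and 1.03 in the controls and 1.70, 1.80 and 2.32 in the A20-deleted libraries, and Lamp2 is the longer gene (9552 bases against 2675). Gm2a per Psap overlapped, at 0.0672 and 0.0737 against 0.0673, 0.0758 and 0.08. Cd68 per Lamp1 was 0.473 and 0.625 against 0.317, 0.475 and 0.379. These ratios are a description and were not called, since the pairs were picked from their values. Libraries of 2 against 3 can also be rearranged in few ways, and an exact permutation test gave no p below 0.2 for any pair.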
